A study of Mus musculus with 6 samples.

Results

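The VGLL, TEAD and YAP cofactors were described in C2C12 cells. These are an established line of mouse myoblasts, which fuse into myotubes once serum is taken away. The 10 genes were Vgll1 to Vgll4, Tead1 to Tead4, Yap1 and Wwtr1, the gene of TAZ. They were found on the arrays as all non-control probes whose RefSeq accession belongs to these genes, which gave 14 probes for the 10 genes. Over the whole array 22056 genes were tested, of which 15366 had a gene symbol. The set was chosen by the measured difference of 1 of its genes, Vgll2, between the groups compared here, so every member value is given as a description, with no p-value, and nothing is read from which members were called. The cells were kept in medium with 10% fetal bovine serum and transfected at 70 to 80% confluence, per the labels, with an siRNA given as 20 um, a unit printed as the labels have it. One group (siRNA-MEG3) received an siRNA that targets Meg3, a long non-coding RNA, and the other (siRNA-NC) a negative control siRNA. The sources used here give no time for RNA extraction. Each group has 3 single-colour Agilent arrays that the labels call biological replicates of 1 line. With bulk RNA, fewer cells of a type and less RNA per cell cannot be told apart.

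TEAD proteins are transcription factors that bind a short DNA element known in muscle genes as MCAT, and they activate little without a cofactor. YAP1 and TAZ are cofactors that carry the output of the Hippo pathway: its kinases MST and LATS phosphorylate them and keep them from the nucleus. The VGLL proteins have no DNA-binding domain of their own and bind TEADs at a surface that overlaps that of YAP and TAZ. VGLL2 is enriched in skeletal muscle and takes part in myogenic differentiation, while VGLL4 is known for competing with YAP for TEADs.

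The stretch before the annotated start of Vgll2 is shown because its probe had by far the largest difference among the members. These are the 250 bases before the start in RefSeq (GRCm38.p6, chr10:52022252-52022501, plus strand), written 5′ to 3′, and capitals mark the motifs found.

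Vgll2: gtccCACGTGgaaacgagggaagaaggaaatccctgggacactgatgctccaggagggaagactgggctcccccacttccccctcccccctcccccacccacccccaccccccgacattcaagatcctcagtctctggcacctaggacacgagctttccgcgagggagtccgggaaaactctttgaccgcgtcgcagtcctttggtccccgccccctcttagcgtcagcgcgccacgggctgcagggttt

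The motifs searched were the MCAT core CATTCC on both strands (GGAATG on the other) and the E-box CANNTG, which reads alike on both strands. CANNTG is the general element of bHLH factors, myogenic ones included, and its middle bases were left free. Which bHLH factor a match would suit was not tested. No motif found in a member's window overlapped another. Vgll2 held 1 E-box, CACGTG, starting 246 bases before the start, and no match to the MCAT core. No match says only that these letters are not in this window.

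Promoter windows were found for 8 of the 10 members, 11 windows in all, since Tead3 has 3 annotated starts and Wwtr1 has 2, and Tead1 and Tead4 were not in the table. An MCAT core stood in at least 1 window of 6 members, and an E-box in that of 4. Over all 32851 promoter windows of 250 bases, 12.6% held the MCAT core and 66.2% an E-box. The Wwtr1 windows share bases, as do those of Tead3 starts 2 and 3, so the members' count is no share of independent sequences. It also counts members with a motif in any of their windows, while the shares over all promoters are per window. The stretches of 30 bases around the MCAT cores of the cofactors that bind TEADs are given with the core in capitals, because this is the element that TEADs bind.

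Vgll1, chrX:57087932-57087961, plus strand: atctgttttcctCATTCCtgcaggtgccta
Vgll3, chr16:65815114-65815143, plus strand: cccgcctccccaCATTCCggctaccctgcc
Vgll4, chr6:114969268-114969297, minus strand: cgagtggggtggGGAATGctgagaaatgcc
Yap1, chr9:8004720-8004749, minus strand: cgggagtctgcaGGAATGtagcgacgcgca
Wwtr1, chr3:57576029-57576058, minus strand: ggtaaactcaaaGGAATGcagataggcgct

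The cores begin 162, 63, 82 and 141 bases before the start of Vgll1, Vgll3, Vgll4 and Yap1. In Wwtr1 1 core was counted from both annotated starts, 170 and 136 bases before them. Tead3 had 2 cores, 123 and 114 bases before start 2, and 1 core 182 bases before start 3. A match is a description of letters and not a binding site.

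**Figure D1:**
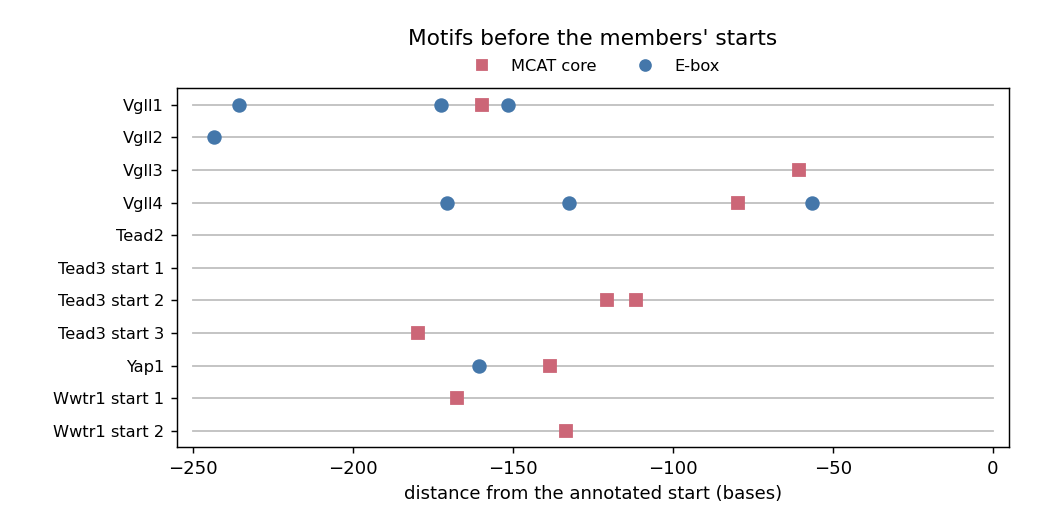
Positions of the MCAT core (squares) and the E-box (circles) in the 250 bases before each annotated start of the 8 members with a promoter window, plotted as distance from the start in bases. Vgll2 has 1 E-box near the far end and no MCAT core, and Tead2 and the first Tead3 start have neither.

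Several features of the arrays bear on every value that follows. Between 70.1 and 75.2% of spots cleared background on the siRNA-NC arrays and between 62.8 and 69.3% on the siRNA-MEG3 arrays, and no spot was saturated. The 3 siRNA-NC arrays were read in 1 scan, siRNA-MEG3 arrays 1 and 2 in scan 2 and siRNA-MEG3 array 3 in scan 3, so scan and group cannot be told apart. siRNA-MEG3 arrays 1 and 3 had the same slide position, and the deviations of their repeated spots from the probe mean correlated at r = 0.98 (other pairs of arrays: -0.14 to 0.54). For siRNA-NC arrays 1 and 3, the variance of the difference between probes was 1.03 times that between spots over 245 repeated probes above background, and 2.09 times over all 399 repeated probes. For siRNA-NC arrays 1 and 2 the first of these ratios was 173. Arrays 1 and 3 of each group were averaged, for siRNA-MEG3 on the shared spot scatter and slide position, which left 2 samples per group, and each SD is over those. siRNA-MEG3 arrays 1 and 2 gave ratios of 1.43 and 2.09 over the same probe sets, and arrays 1 and 3 gave 2.02 and 1.34, so the siRNA-MEG3 samples could be repeats of 1 RNA, and a small spread in that group is no measure of biological spread. Meg3 itself cannot check the labels: on the siRNA-MEG3 arrays all 3 of its probes failed the background mark, and 1 passed it on an siRNA-NC array.

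Levels are processed signals, the scanner software's background-subtracted brightness of a spot, and differences are on the log2 scale after each array was set relative to its 75th percentile. Each member probe was printed once per array. Levels of different probes are not set against each other, because brightness also depends on the probe. In the limma fit over all genes, 304 of 22056 were called at an adjusted p under 0.05, that is 1.38% (211 higher and 93 lower with siRNA-MEG3; 112 and 77 under normexp with bright local background left out). The count rests on the averaging: it was 1891 with siRNA-NC arrays 1 and 3 as 2 samples and 5701 with all 6 arrays as samples. The share called higher was 0.957%. Of the 9 members that passed the filter on dim probes, 1 was called, Vgll2, higher with siRNA-MEG3, which passed the filter only through the group where it is high, and the 10th member, Vgll4, did not pass it. Since the set was chosen on this contrast, nothing is read from that count. The 9 kept members had a median log2 difference of 0.24 and 6 of the 9 were above 0, beside a median of -0.02 and 48.2% above 0 over all genes tested.

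**Figure D2:**
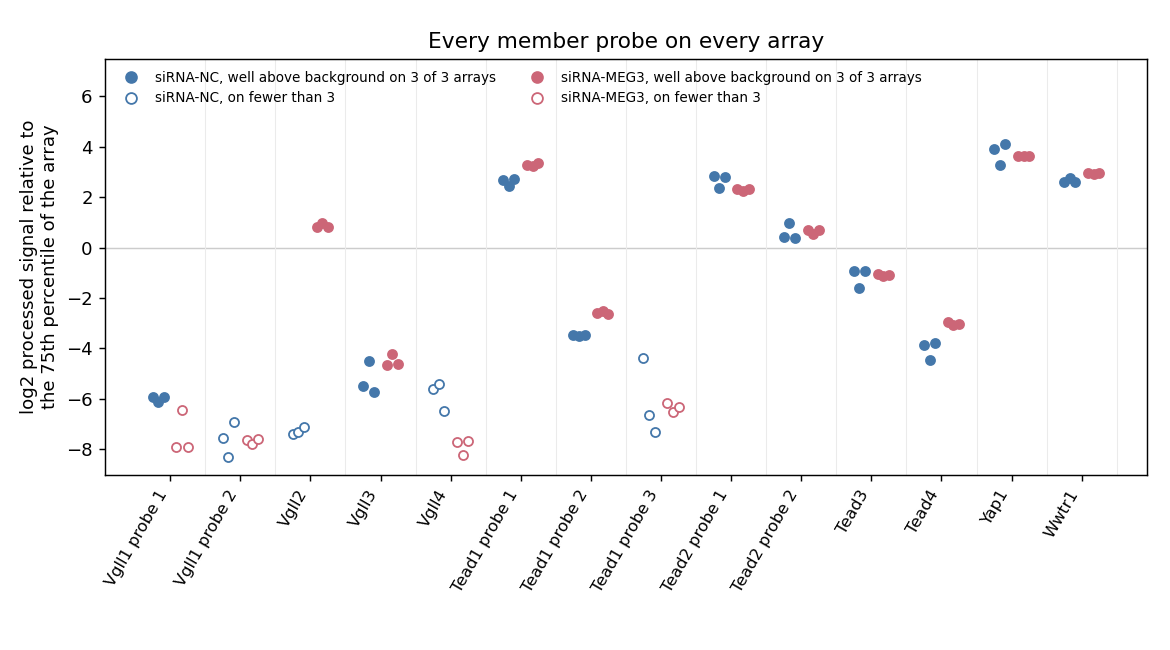
Log2 processed signal relative to the 75th percentile of its array, for each of the 14 member probes (x axis) on each of the 3 siRNA-NC and 3 siRNA-MEG3 arrays (points, in replicate order). Open points mark a group in which the probe was well above background on fewer than 3 arrays; Vgll2 is open in siRNA-NC and closed, about 8 log2 units higher, in siRNA-MEG3.

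Vgll2 was the member that differed most. Arrays 1 to 3 of siRNA-NC gave it a processed signal of 7.72, 14.5 and 8.89, and those of siRNA-MEG3 gave 2297, 2599 and 2193. All siRNA-MEG3 arrays were far above all siRNA-NC arrays, and the probe was not well above background on any siRNA-NC array. On the log2 scale it stood at -7.27 ± 0.03 with siRNA-NC and 0.89 ± 0.10 with siRNA-MEG3 (SD, n = 2 samples), a difference of 8.16 ± 0.20 (SE). Because the siRNA-NC side is below background, the difference is a bound: at least 193-fold higher with siRNA-MEG3. That bound sets the siRNA-MEG3 mean against the lowest signal of any probe well above background on each siRNA-NC array. It holds for the processed signal only, since normexp gave smaller differences.

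Spots around the Vgll2 spot did not share the difference. The 8 neighbouring spots had log2 differences from -1.54 to 0.74, with a median of -0.31. Its spot also lay outside the dark patches of the siRNA-MEG3 arrays. A patch is a block of 30 rows and 17 columns with more than 5% of its spots over 4-fold dimmer than with siRNA-NC. With normexp background correction, in which 19 spots of bright local background on siRNA-MEG3 array 2 were left out, the difference was 5.16, and with all spots 5.04. The cause of that smaller value was not tested. The call ended with normexp on all spots, without the filter on dim probes and without siRNA-NC replicate 2, though the difference in the last was 8.14.

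The other VGLL genes were dim and went several ways. Vgll3, another TEAD cofactor, gave signals of 28.8, 101 and 23.5 under siRNA-NC against 51.9, 71.3 and 49.8 under siRNA-MEG3. The groups overlapped: siRNA-NC array 2 was the highest of the 6 before scaling and lay among the siRNA-MEG3 arrays after it. The difference was 0.61 ± 0.45 (SE), and 1.16 without siRNA-NC replicate 2. Vgll1 had 2 probes, and the second, at a log2 difference of 0.06, was not well above background on any array. The first gave 21.1, 32.4 and 20.1 under siRNA-NC against 5.42, 15.4 and 5.16 under siRNA-MEG3, with no array of one group inside the other. It did not clear background on any siRNA-MEG3 array, so its level there is only a bound (at least 1.16-fold lower, or 1.09-fold with a stricter floor added after seeing the data), and its spot lay in a dark patch on 2 siRNA-MEG3 arrays. Under normexp with bright local background left out its difference was 0.06 in place of -1.14, and with all spots 1.67.

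Vgll4, the competitor of YAP for TEADs, gave 26.5, 53.4 and 13.96 under siRNA-NC against 6.26, 4.39 and 6.13 under siRNA-MEG3. All siRNA-MEG3 arrays were below all siRNA-NC arrays. The probe stood above background on 2 of the siRNA-NC arrays but on none with siRNA-MEG3, so it did not enter the fit. On the processed signal the difference is a bound of at least 1.69-fold lower with siRNA-MEG3. The siRNA-NC signal of 13.96, not well above background, was taken as it stands for that bound. With the floor taken only over probes whose every spot cleared background, an alternative added after seeing the data, the bound was 1.37-fold. Its log2 difference was -2.24 as measured and -0.10 under normexp with bright local background left out, and it turned to 1.68 under normexp on all spots, so its direction depends on the background correction. Of the 4 VGLL genes, only Vgll2 was well above background on every siRNA-MEG3 array and on no siRNA-NC array.

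Among the TEAD factors, Tead4, which is known to be expressed in differentiating muscle cells, stood higher with siRNA-MEG3. Its signals were 88.8, 103 and 90.7 under siRNA-NC against 168, 159 and 153 under siRNA-MEG3. Every siRNA-MEG3 array was above every siRNA-NC array, and all 6 were well above background. The log2 level went from -4.14 ± 0.46 to -3.03 ± 0.06 (SD, n = 2 samples), a difference of 1.11 ± 0.30 (SE), or 2.16-fold. Without siRNA-NC replicate 2, which read lowest after scaling, the difference was 0.78.

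Tead1, a widely expressed TEAD of striated muscle, had 3 probes. The first gave 8174, 12518 and 8147 under siRNA-NC against 12819, 12705 and 12678 under siRNA-MEG3. The siRNA-MEG3 arrays were the higher ones on scaled and unscaled values alike, with siRNA-NC array 2 close below them before scaling. The 75th percentile of that array was 2279, against 1232 to 1334 on the others. The scaled log2 difference of this probe was 0.71 ± 0.21 (SE). The second probe had signals of 118, 198 and 111 against 217, 233 and 201 and a difference of 0.93, and again no siRNA-MEG3 array lay within the siRNA-NC range. The last of the 3 probes cleared background on 2 siRNA-NC arrays and on none with siRNA-MEG3, its groups overlapped, and it gave -0.13. The first and second Tead1 spots lay in dark patches on 2 siRNA-MEG3 arrays, so no value without those patches could be had for them.

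Tead2 and Tead3, the other TEAD factors, showed smaller differences. The brighter Tead2 probe gave 9214, 11724 and 8574 under siRNA-NC against 6513, 6326 and 6115 under siRNA-MEG3, all siRNA-MEG3 arrays lower, at a log2 difference of -0.31 ± 0.25 (SE). Without siRNA-NC replicate 2 that value was -0.54. The other Tead2 probe gave 1726, 4456 and 1585 against 2110, 1952 and 1979, with siRNA-NC array 2 high and the groups overlapping, and it gave -0.06. Tead3 gave 684, 756 and 647 under siRNA-NC against 627, 603 and 582 under siRNA-MEG3. Its groups overlapped on the scaled values, the difference was 0.15 ± 0.30 (SE), and it turned to -0.19 without siRNA-NC replicate 2. Its spot lay in a dark patch on 2 siRNA-MEG3 arrays, and the second Tead2 spot on 1.

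The coactivators of the Hippo pathway differed little. Yap1 gave 19391, 22043 and 21232 under siRNA-NC against 16073, 16659 and 15329 under siRNA-MEG3. After scaling siRNA-NC array 2 was the lowest of the 6 and the other siRNA-NC arrays the highest, so the groups overlapped, and the log2 difference was -0.01 ± 0.32 (SE), or -0.37 without siRNA-NC replicate 2. Wwtr1 gave 7855, 15543 and 7538 under siRNA-NC against 10165, 9997 and 9629 under siRNA-MEG3. On the scaled values every siRNA-MEG3 array was higher, at 2.93 ± 0.04 against 2.69 ± 0.11 (SD, n = 2 samples), a difference of 0.24 ± 0.20 (SE).

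Across the 14 probes, all siRNA-MEG3 arrays were higher in 5 and lower in 3, and the groups overlapped in 6. Over all genes tested, the groups did not overlap in 25.3% with siRNA-MEG3 higher and in 21.8% with it lower. Those shares take 1 probe per gene that passed the filter. The 14 probes include several of the same gene and some that did not pass, so the units are not alike. In all, 9 of the probes were well above background on all 6 arrays. Under 6 scalings, which were the 75th percentile with and without outlier spots, quantile, the factor of the label protocol, the deposited table and normexp with bright local background left out, Vgll2, Vgll3, Tead3, Tead4, Wwtr1 and the first and second Tead1 probes were above 0 each time. Vgll4 and the brighter Tead2 probe were below 0 each time. Yap1 and the dimmest Tead1 probe were above 0 in 3 and below 0 in 3, the other Tead2 probe was above 0 in 1 and the first Vgll1 probe in 1. The second Vgll1 probe, not well above background on any array, was above 0 in all 5 scalings that held it. This tally leaves out normexp on all spots, which moved the median of all genes to 0.50; there Vgll4, the first Vgll1 probe and the dimmest Tead1 probe were at 1.68, 1.67 and 1.84, and the brighter Tead2 probe at -0.59.

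**Figure D3:**
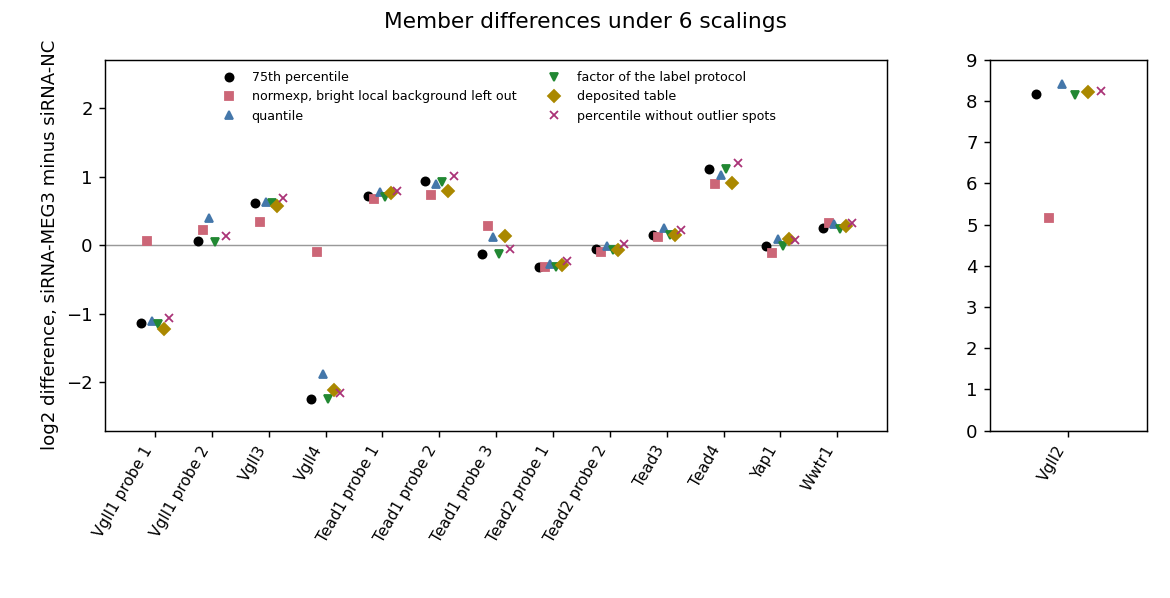
Log2 difference between siRNA-MEG3 and siRNA-NC for each member probe (x axis) under 6 ways of scaling the arrays (symbols; normexp on all spots is not drawn), with Vgll2 on an axis of its own at the right. Vgll2 lies between 5.16 and 8.41, while Yap1, Tead3, Wwtr1 and both Tead2 probes stay within 0.5 of 0 under all 6.

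The genes whose centred log2 values over the 6 arrays lay nearest to those of Vgll2, by Euclidean distance among 15365 genes with a symbol, were Tspan7 (distance 0.80), Pdlim3 (1.54) and Alox5 (1.62). Tspan7, which encodes a tetraspanin, gave 17.6, 15.5 and 11.9 under siRNA-NC against 3595, 3752 and 3513 under siRNA-MEG3, and it cleared background on 1 siRNA-NC array. Pdlim3, which encodes a Z-disc protein of muscle, ranged from 32.5 to 50.2 under siRNA-NC and 3693 to 3928 under siRNA-MEG3, and Alox5, the gene of an arachidonate lipoxygenase, from 17.97 to 41.5 and 2832 to 3462. The 3 nearest to Tead4 were Iigp1 (0.07), Mdh1b (0.09) and Cpa6 (0.12). Each of the 6 genes thus shares with its member the group difference that the distance was taken over.

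Upstream of these cofactors, no gene of the Hippo pathway was called. Of 35 listed genes 31 were tested, none rose or fell by limma over all genes, 5 had an unadjusted p under 0.05 (16.1%, beside 18.6% of all genes), and 8 of 30 were called when the 6 arrays were taken as 6 samples (26.7%, beside 26.0% of all genes). Their median log2 difference was 0.25, with 22 above 0 and 9 below, beside -0.02 over all genes. The 4 with the smallest p were the kinase gene Taok3 (-1.97 ± 0.38 SE; limma adjusted p = 0.118), the polarity protein gene Patj (1.38 ± 0.36; 0.173), the scaffold gene Wwc1, whose product KIBRA acts upstream of LATS (0.76 ± 0.22; 0.194), and the kinase gene Lats2 (0.65 ± 0.20; 0.213). Taok3 gave 50.8, 128 and 55.7 under siRNA-NC against 12.9, 22.2 and 10.9 under siRNA-MEG3, and cleared background on 1 of 3 siRNA-MEG3 arrays. Other probes of Patj that passed the filter had log2 differences of 0.65, 1.35, -0.30 and 1.17, and another probe of Lats2 had 0.34. By role, 7 of 10 core kinases and adaptors, 8 of 11 upstream and junction proteins and 7 of 10 proteins that restrain YAP, TAZ or the kinases were above 0.

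Among genes widely used as readouts of YAP and TEAD activity, Ccn2, which encodes a matricellular protein, rose. It gave 3004, 4554 and 2885 under siRNA-NC against 12423, 12835 and 11904 under siRNA-MEG3, with no overlap. The log2 difference was 2.15 ± 0.21 (SE, n = 2 samples per group; limma adjusted p = 0.0419), or 4.44-fold. Of 20 tested targets 1 rose (5%, beside 0.957% of all genes), none fell and 19 did not pass. By limma 5 had an unadjusted p under 0.05 (25%, beside 18.6% of all genes). With p adjusted over the list alone the count was 3. The list was drawn up with results of these data known. Neither that count nor the shares and median set beside all genes are therefore independent evidence. The next were Ankrd1 (1.24 ± 0.21 SE; adjusted p = 0.0928), Fjx1 (1.24 ± 0.22; 0.103) and Lats2, which is in both lists. The median of the targets was 0.41 with 14 of 20 above 0, beside -0.02 and 48.2% over all genes. Ccn2 no longer passed without siRNA-NC replicate 2 (2.04; adjusted p = 0.119), without the filter on dim probes (0.114), with normexp on all spots (0.61) or with a replicate block on the 4 samples (0.0787).

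Of the muscle genes with a well-known MCAT element, 3 of 6 rose (50%, beside 0.957% of all genes), none fell and 3 did not pass. By limma 5 had an unadjusted p under 0.05 (83.3%, beside 18.6% of all genes). The median log2 difference was 1.97, beside -0.02 over all genes. At the brightest probe of each gene all 6 were above 0, beside 48.2% of all genes. For Myh6 that probe gave 0.16 ± 0.31 (SE) with overlapping groups, and another probe that passed the filter gave -1.16. Tnnt2, which encodes cardiac troponin T and is made in early skeletal muscle, gave 1040, 1705 and 733 under siRNA-NC against 11244, 12247 and 10714 under siRNA-MEG3. It rose by 3.63 ± 0.20 on the log2 scale (SE, n = 2; limma adjusted p = 0.0225), or 12.4-fold. Actc1, the cardiac alpha-actin gene, was at 134, 79.5 and 127 against 10822 and 10143 on siRNA-MEG3 arrays 2 and 3, its spot on array 1 being marked as an outlier. It rose by 7.09 ± 0.57 (adjusted p = 0.0298). Myh7, the slow myosin heavy chain gene, rose by 2.25 ± 0.20 (limma adjusted p = 0.034), while Ckm, the muscle creatine kinase gene, stood at 1.70 ± 0.24 (limma adjusted p = 0.0702). The Ckm probe cleared background on 2 of 3 siRNA-NC arrays. With p adjusted over the list alone the count was 5. This list too was drawn up with results of these data known. That count, the shares and the median are therefore a description and no independent evidence. None of the 3 passed without siRNA-NC replicate 2, with normexp on all spots or without the filter on dim probes. The differences of Tnnt2, Actc1 and Myh7 were then 3.68, 6.30 and 2.3 without that replicate and 3.38, 5.83 and 2.23 with normexp, and the filter did not change them. Myh7 also failed under normexp with bright local background left out (1.64; limma adjusted p = 0.054) and with a replicate block on the 4 samples (0.0738). With the dark patches left out 5 of the 6 genes could be tested, and no value could be had for Myh7.

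**Figure D4:**
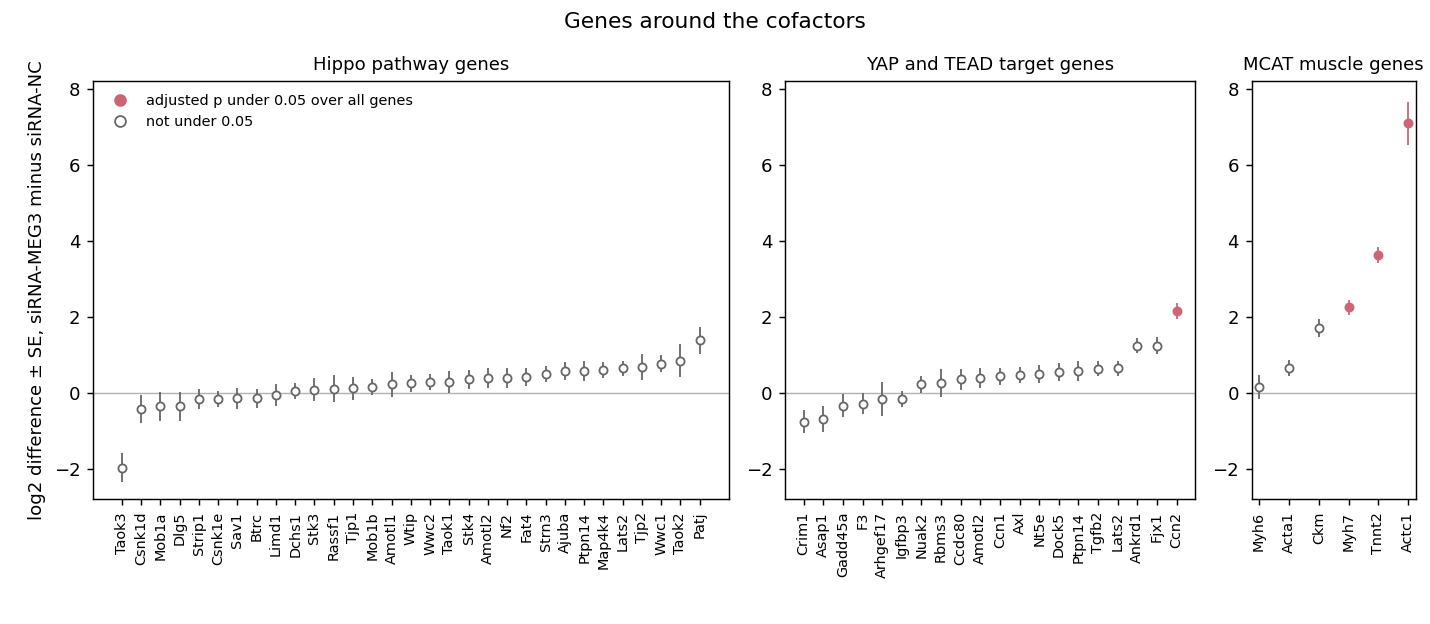
Log2 difference ± SE between siRNA-MEG3 and siRNA-NC (n = 2 samples per group) for the tested Hippo pathway genes (31), YAP and TEAD targets (20) and MCAT muscle genes (6), sorted by value; filled points passed the threshold over all genes. No Hippo gene passed, Ccn2 passed among the targets, and Myh7, Tnnt2 and Actc1 passed among the muscle genes.

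Myotube markers moved beside Vgll2. The summed signal of 6 myotube markers was 1079 to 1848 on the siRNA-NC arrays and 22158 to 23841 on the siRNA-MEG3 arrays. Myh3 alone gave 12630 to 13566 on the siRNA-MEG3 arrays. Of the 5 tested Myog, Mymx and Myh3 rose (limma adjusted p = 0.0246, 0.0298 and 0.0292), beside 0.957% of all genes. The marker lists too were drawn up with results of these data known. All 6 myoblast markers were well above background on every array, summing to 41679 to 71946 and 69952 to 74562. None of these 6 passed the threshold by limma (4 had an unadjusted p under 0.05, beside 18.6% of all genes). Their log2 differences ran from -2.95 (Myf5) to 2.21 (Myod1), 4 of them above 0, with a median of 0.78. The 3 fibroblast markers measured on all arrays summed to 5543 to 7512 with siRNA-NC and 2897 to 3152 with siRNA-MEG3, and 1 of the 4 listed was below background on all 6 arrays. Of the 2 tested neither passed: Pdgfra stood at -0.74 (limma adjusted p = 0.236) and Lum at 0.02 (0.98). On all siRNA-NC arrays 3 of 4 adipocyte, 3 of 3 osteoblast, 2 of 3 endothelial and 2 of 2 macrophage markers cleared background, and on all siRNA-MEG3 arrays 1, 1, 2 and 1. Of these lists 3, 3, 2 and 2 genes were tested, and none passed by limma (1, 1, 0 and 0 had an unadjusted p under 0.05). The sums add the unscaled signals of different probes, so they are not set against each other. The part of any of these cell types in the Vgll2 difference was not tested.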

How the data were processed

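RNA of C2C12 cells was measured on 6 single-colour arrays. The deposited scanner files were made with Agilent Feature Extraction 11.0.1.1, per the file headers, and give each spot's intensity (processed signal, median of its pixels, local background) with flags for quality. A deposited series table gives 30732 probes in log2 units, each column with a median of 8.11 and the same maximum. Against the arrays' own log2 processed signal its columns correlated at 0.9991 to 0.9997, which settled scale and direction; how the authors set the arrays to one level is not known. The authors averaged replicate probes, per the labels, and based their normalization on intensities of 30 or more.

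After control and outlier spots were dropped and repeated spots averaged, log2 processed signals were taken minus the array's 75th percentile, computed over 39429 probes with outlier spots included. That percentile was first taken without outlier spots; it was changed after calls and member values had been seen, and the first version is among the alternatives. Names came from RefSeq accessions (GRCm38.p6), which matched 27234 probes. The filter asked that a probe clear background on every array of 1 group or both; a gene was represented by its brightest probe that passed. The test was limma (3.58.1, under R 4.3.3; 2-sided, Benjamini-Hochberg over all genes, threshold 0.05; residual degrees of freedom 2, prior 2.20), tested on simulated data beforehand. Arrays 1 and 3 of each group were averaged. The spot comparison behind this was first run over all 399 probes printed 10 times and then restricted to 245 that were above background on all arrays; the averaging of the siRNA-NC pair rests on the restricted version, and a fit with that pair as 2 samples was added after seeing the data. p-values measure only the spread between these samples, which may be technical.

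The members and all lists were chosen with earlier results of these data known. Named genes were the 10 members, list genes past the threshold, the 4 genes of each list with the smallest p, and the 3 nearest in profile to Vgll2 and to Tead4; cell type markers come from fixed lists. Normexp used the median pixel intensity and an offset of 50. Dark patches were judged over spots that cleared background with siRNA-NC, a basis chosen after a version over all spots had been run; they held 29.5, 5.87 and 20.5% of siRNA-MEG3 arrays 1 to 3. Promoter sequences are from RefSeq (GRCm38.p6). Alternatives covered background, scaling, filter, samples, replicate block, outlier spots, dark patches, probe choice and each array left out.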

Additional observations from a re-analysis of the deposited data

How the results depend on the processing

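The Vgll2 log2 difference stayed positive in every alternative. It was 5.04 with normexp, 5.16 with normexp and bright local background left out, 8.41 with quantile scaling, 8.24 with the percentile taken without outlier spots (chosen after seeing the data), and 8.09 to 8.23 with each array left out. The cause of the smaller normexp values was not tested.

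Counts of calls depended on which arrays count as samples. Over the whole array 304 genes became 0 with normexp (781 at an unadjusted p under 0.05), 189 with bright local background left out (112 higher, 77 lower), 0 without the filter on dim probes (4346 unadjusted), 5701 with 6 arrays as 6 samples, 1891 with siRNA-NC arrays 1 and 3 as 2 samples (added after seeing the data) and 0 to 2993 with each array left out. The highest came without siRNA-MEG3 replicate 2 and the 0 without siRNA-NC replicate 2, fits in which a lone sample is assumed to vary like the other group. Members called went from 1 to 0 with normexp and without the filter. With 6 arrays they were 3 of 9 (Vgll2, Tead1 and Tead4), 33.3% beside 26% of all genes, and nothing is read from that count. Leaving out an array whose group kept 2 samples left 1 called. Hippo genes went from 0 to 8 of 30 with 6 arrays (26.7%, beside 26% of all genes). With siRNA-NC arrays 1 and 3 as 2 samples 1 of 31 was called (Taok3), 3.23% beside 8.59% of all genes. Leaving out an array whose group kept 2 samples gave 0 to 1. Targets went from 1 to 0 with normexp and without the filter. They went to 9 of 20 with 6 arrays (45%, beside 26% of all genes). With siRNA-NC arrays 1 and 3 as 2 samples they were 3 of 20 (15%, beside 8.59%). Leaving out an array whose group kept 2 samples left 1. MCAT genes went from 3 to 0 with normexp and without the filter, and from 0 to 4 with each array left out. The median of all genes moved from -0.02 to 0.50 with normexp.

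Same-numbered arrays did not deviate together (r from -0.04 to -0.03), and the main fit used no pairing. Deviations within a group may be technical here, so these r values cannot show whether the numbers pair the arrays. With a replicate block the whole array gave 152 calls on 4 samples (0.689% of genes) and 2690 on 6 arrays (12.3%). Members gave 1 and 3 of 9 (11.1 and 33.3%). Hippo genes gave 0 of 31 and 2 of 30 (6.67%), and targets 0 and 4 of 20 (20%).

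Signal over background limits Vgll1, Vgll2 and Vgll4, whose low group is not measured, so their sizes are bounds that hold for the processed signal only. The bounds of Vgll1 and Vgll4 move with the floor, and their differences turn with normexp on all spots. For Vgll2 normexp gave smaller log2 differences, 5.04 on all spots and 5.16 with bright local background left out. Scan and group cannot be told apart, and 2 samples per group limit all errors.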
